A study of Homo sapiens with 2 samples.

Results

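The messages described here encode 10 heat shock chaperones of the cytosol and the mitochondrion: HSPA8, HSP90AA1, HSP90AB1, HSPH1, HSPA4, DNAJA1, DNAJB1, HSPB1, HSPD1 and HSPE1. They were found by gene symbol, and each matched 1 of the 57820 gene IDs in the deposited counts. Messenger RNA was sequenced from HEK293T, an established human embryonic kidney cell line, in 1 library labelled control siRNA (the control library) and 1 labelled SRα siRNA (the SRα library). SRα, encoded by SRPRA, is the subunit of the signal recognition particle receptor that was targeted for depletion, and the comparison asks which messages stood at another level once it was depleted. No other treatment or time point is given in the labels. With 1 library per group there is no replicate check, no test between conditions was made, and the 95% intervals below cover counting error only.

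Many heat shock chaperones bind unfolded stretches of protein and release them in cycles driven by ATP. In the cytosol, HSP70 proteins receive clients from J-domain proteins, are reset by exchange factors of the HSP110 family, and pass some clients to HSP90. In the mitochondrial matrix, imported proteins fold inside the HSP60 and HSP10 chamber. Transcription of many of these genes rises on heat or proteotoxic stress through heat shock factor 1 (HSF1), which binds heat shock elements, inverted repeats of the unit GAA spaced by short gaps.

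SRPRA itself was counted 507 times in the control library and 449 times in the SRα library, which is the deeper one. Its ratio of CPM (the read count relative to the effective size of the library) was 0.570 (0.501 to 0.648). The libraries held 2445200 and 3896721 reads assigned to genes. Of 8 genes listed as markers of HEK293T, 7 matched an ID and each of these had reads in both libraries, with VIM at 311 and 386 CPM and PAX2 at 1 and 7 reads. Of 8 markers of other cell types, 7 matched, PTPRC, CD3E and HBB were listed at 0 in both libraries, and the 3 that reached a mean of 1 CPM held 43 and 68 reads together.

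The sequences around the starts of these genes show where the letters of a heat shock element occur. The RefSeq windows of GRCh38.p14, from 250 bases before to 50 bases after each annotated start, were searched on both strands for GAANNTTCNNGAA and TTCNNGAANNTTC, which are reverse complements of each other and can overlap. All 10 genes matched by symbol, with 16 windows. Of these windows 5 held the element, belonging to 5 genes, against 172 of all 35116 windows (0.490%). The stretches are printed because their letters match the heat shock element. The match is in capitals and on the strand of the gene.
HSPD1, chr2:197500062-197500090, minus strand, starting 245 bases before the start: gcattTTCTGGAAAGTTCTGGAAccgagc
HSPA8, chr11:123062346-123062374, minus strand, starting 230 bases before the start: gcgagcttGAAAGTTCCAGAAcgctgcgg
HSPA8, chr11:123062171-123062199, minus strand, starting 55 bases before the start: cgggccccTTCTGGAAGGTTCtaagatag
HSP90AA1, chr14:102087112-102087140, minus strand, starting 88 bases before the start: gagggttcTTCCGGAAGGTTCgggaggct
HSP90AB1, chr6:44247770-44247798, plus strand, starting 165 bases before the start: ggagcaggTTCTGGAAGATTCatgggctc
HSP90AB1, chr6:44247823-44247851, plus strand, starting 112 bases before the start: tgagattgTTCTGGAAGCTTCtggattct
DNAJA1, chr9:33025268-33025296, plus strand, starting 4 bases after the start: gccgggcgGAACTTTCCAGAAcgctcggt

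The HSPD1 stretch holds 2 overlapping matches, so that its capitals run over 18 bases instead of 13. HSPA8 and HSP90AB1 each carried a pair of separate elements in 1 window. No window of HSPE1, HSPH1, HSPA4, DNAJB1 or HSPB1 held these letters, which says nothing about HSF1 there. The shorter GAANNTTC or TTCNNGAA, which lies inside every match above, was in 8 of the 16 windows, belonging to 7 of the 10 genes. It was in 4737 of all 35116 windows (13.5%). A match is a description of the letters, and no binding was measured.

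Together the chaperones took 1.07% of gene reads in the control and 1.13% in the SRα library, or 26119 and 43850 reads. The summed level in CPM was 1.08 times the control level, a log2 ratio of 0.11 (0.09 to 0.13). The log2 ratio was above 0 for 7 of the 10 and below 0 for 3, with a median of 0.07, beside a median of 0.01 and 51.4% above 0 among the 12747 genes that averaged 1 CPM or more. None of the 10 lay 2-fold apart in either direction, against 2.15% of those genes 2-fold higher and 2.57% 2-fold lower. At 1.2-fold, HSPD1 was higher and 0 were lower, against 17.5% and 18.4% of the same genes. Small ratios can be told from equal levels only where reads are many, so the 4007 genes that averaged 50 CPM or more are the closer background. Of these, 5.24% were 1.2-fold higher and 2.92% lower, and 59.9% lay above 0, beside 7 of the 8 chaperones in that range. The median log2 ratio of these genes was 0.04, nearer to the 0.07 over the 10 chaperones than the 0.01 above.

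The counting interval lay above equal levels for 5 chaperones, HSPA8, HSPH1, DNAJA1, HSPD1 and HSP90AB1, and below it for 0. Among genes of at least 1 CPM 5.46% had an interval above equal and 3.39% one below. Among genes of at least 50 CPM the shares were 11.7% and 4.89%. Chaperones are among the most-read of these genes, and an interval narrows with reads, so these shares are not matched to their depth. Leaving out equal levels in this sense compares the 2 libraries and not the conditions.

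**Figure D1:**
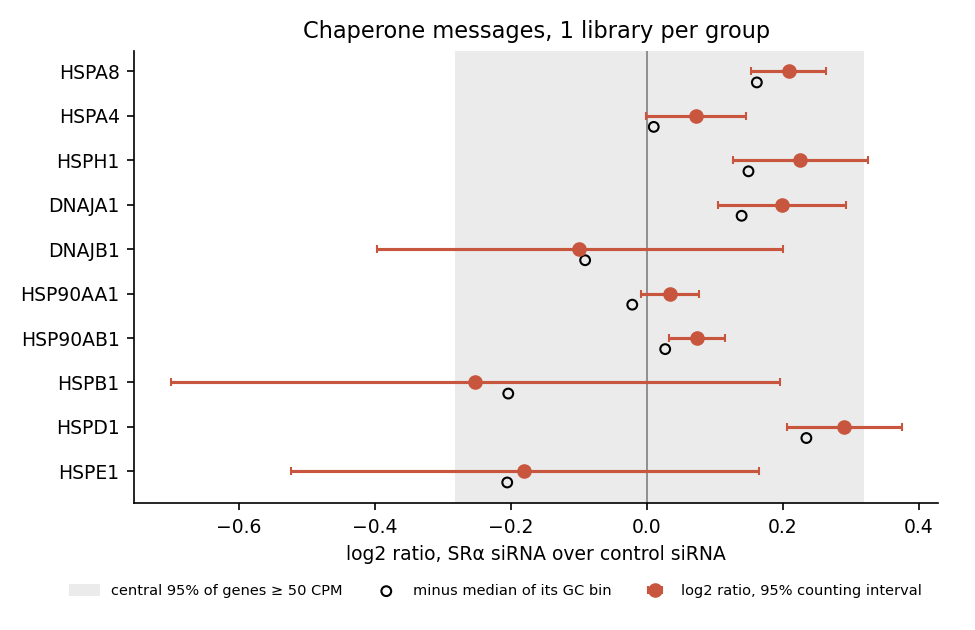
Log2 ratio of each chaperone message, SRα library over control library (x axis), with bars for the 95% counting interval, open circles for the ratio less the median of genes of like GC content, and a grey band for the central 95% of genes of at least 50 CPM. HSPD1 is farthest to the right at 0.29, and the wide bars belong to HSPB1, HSPE1 and DNAJB1, which had the fewest reads.

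HSPA8, the constitutive HSP70 of the cytosol, was counted 4087 times in the control library, against 7338 in the SRα library, or 1650.5 and 1907 CPM. It was higher in the SRα library, by a log2 ratio of 0.21 (0.15 to 0.26). That placed it at rank 415 from the highest ratio of the 4007 genes of at least 50 CPM. HSPA8 carried 15.6% of the reads of the 10 chaperones in the control library and 16.7% in the other. HSPA6, an HSP70 gene in the list of HSF1 targets used below, had 0 reads in the control and 1 in the SRα library, too few to compare. The stress-induced relatives HSPA1A and HSPA1B could not be compared either, since both were listed at 0 reads in both libraries.

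That 0 was shared by the neighbours of HSPA1A and HSPA1B. In the gene order of GENCODE 29 they lie in the major histocompatibility region of chromosome 6, and between HLA-F and KIFC1 140 of 151 protein-coding genes (92.7%) were listed at 0 in both libraries. On the rest of chromosome 6 it was 226 of 843 (26.8%). The stretch, chosen after the values were seen, includes TUBB and RPS18, a tubulin and a ribosomal protein that dividing cells use, and both were listed at 0 as well. The 0 of HSPA1A and HSPA1B, of HSPA1L, of the exchange factor BAG6 and of the prefoldin subunit PFDN6, which lie in the same stretch, is therefore given as a listing and not as a level.

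The exchange factors of the HSP110 family, which open HSP70 for a new round of ATP binding in turn, gave unlike ratios. HSPH1 had 1285 and 2335 reads, or 519 and 607 CPM in the control and SRα libraries, a log2 ratio of 0.23 (0.13 to 0.33). HSPA4 had 2405 and 3929 reads, or 971 and 1021 CPM, and 0.07 (0.00 to 0.15), an interval that just holds equal levels. Within a library the comparison needs no scaling: there were 0.534 HSPH1 reads per HSPA4 read in the control and 0.594 in the SRα library, 1.11 times as many (1.02 to 1.21).

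DNAJA1 and DNAJB1 are J-domain proteins, which deliver clients to HSP70 and start its ATP hydrolysis. DNAJA1 had 1431 and 2552 reads, or 578 and 663 CPM, a log2 ratio of 0.20 (0.10 to 0.29). DNAJB1, which HSF1 induces under stress, had 160 and 232 reads, or 64.6 and 60.3 CPM, a log2 ratio of -0.10 (-0.40 to 0.20). No difference in DNAJB1 was detectable at this depth. The message of DNAJA1 was set against that of HSPA8, at 2.86 and 2.88 HSPA8 reads per DNAJA1 read, a ratio between libraries of 1.01 (0.93 to 1.09). Against DNAJB1 the ratio of DNAJA1 was 1.23 (0.99 to 1.53), which the counts do not separate from 1. Against DNAJB1 the ratio of HSPA8 was nearly the same, 1.24, with an interval that just leaves out 1 (1.002 to 1.53).

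The cytosolic HSP90 pair, which matures kinases and steroid receptors, had the most reads and the narrowest intervals. HSP90AA1, the stress-inducible form, had 7361 and 11711 reads, or 2973 and 3044 CPM, a log2 ratio of 0.03 (-0.01 to 0.08). HSP90AB1, the constitutive form, had 7468 and 12212 reads, or 3016 and 3174 CPM, and 0.07 (0.03 to 0.12). Both sat close to the median log2 ratio of 0.04 over genes of at least 50 CPM. There were 0.986 HSP90AA1 reads per HSP90AB1 read in the control and 0.959 in the SRα library, a ratio of 0.973 (0.934 to 1.01).

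HSPB1, a small heat shock protein that holds unfolded clients without ATP, had the fewest reads of the 10. It had 76 and 99 reads, or 30.7 and 25.7 CPM, a log2 ratio of -0.25 (-0.70 to 0.20). The interval spans ratios from 0.615 to 1.15, so no difference was detectable.

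HSPD1 and HSPE1 encode HSP60 and HSP10, the chamber and lid of the mitochondrial chaperonin, and are transcribed away from each other from neighbouring starts. RefSeq places HSPD1 starts 105 and 539 bases from the HSPE1 start, on the other strand. The HSPD1 element printed above lies between the 2 HSPD1 starts. It is 245 bases before the farther one and, on the strand of HSPD1, after the nearer one. It is 294 bases from the HSPE1 start and so outside the HSPE1 window. HSPD1 had 1722 and 3272 reads, or 695 and 850.4 CPM, a log2 ratio of 0.29 (0.21 to 0.38), the highest of the 10 and rank 146 of 4007. HSPE1 had 124 and 170 reads, or 50.1 and 44.2 CPM, a log2 ratio of -0.18 (-0.52 to 0.17). The pair thus stood apart: 13.9 HSPD1 reads per HSPE1 read in the control and 19.2 in the SRα library, 1.39 times as many (1.08 to 1.77).

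HSPE1 is also the member whose exons overlap most with other genes. In GENCODE 29, 9.71% of its exonic bases lie in exons of the read-through gene HSPE1-MOB4 on the same strand and 14.2% in exons of HSPD1 on the opposite strand. HSPE1-MOB4 was listed at 0 reads. Reads that matched several genes were set aside, 4.67% and 4.58% of uniquely aligned reads in the 2 libraries, and how many of them came from HSPE1 is not recorded. For HSPD1 the overlap was 6.62%, for DNAJB1 6.21%, for HSP90AA1 3.75% and for HSPA8 3.61%, and the other 5 had 0. The part of these overlaps in the HSPD1 and HSPE1 values was not tested.

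Processed copies of these genes are many. Of 82 rows named as copies or read-through genes of a chaperone, 30 had any read, and together they held 146 and 224 reads, 0.556% and 0.508% of the reads of chaperones and copies. HSP90AA2P was the most read with 76 and 112, followed by HSP90AB2P with 14 and 37, HSP90AA6P with 18 and 27, DNAJA1P3 with 8 and 10 and HSP90AB3P with 4 and 10. HSPE1 had 27 such rows with 0 and 1 reads. Reads that align equally well to a gene and its copy were not counted at either. The counts of all the chaperones but HSPH1 and HSPA4, which had 0 copy rows, are uncertain to that extent. Alignments that were not unique were 79.6% of entries in the control library and 76.5% in the other.

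Levels of different genes were compared within each library as TPM, reads per exonic length as a share of the library. In the control library HSP90AB1 stood highest at 2138 TPM, followed by HSP90AA1 at 1197, HSPA8 at 719, DNAJA1 at 447, HSPA4 at 398 and HSPD1 at 346. Below them came HSPH1 at 131, HSPE1 at 53.5, HSPB1 at 39.7 and DNAJB1 at 37.2. HSP90AB1 ranked 36 among all genes in both libraries, and HSPB1 ranked 2667 and 3070. Between the libraries 2 neighbouring pairs traded places: HSPD1 stood at 394 TPM above HSPA4 at 390.2 in the SRα library, and DNAJB1 at 32.3 above HSPB1 at 31.0. Another length, that of the longest coding transcript, was used after the values were seen. With it HSPA8 was at 1787 TPM and HSPD1 at 755 in the control library. HSPD1 took place 4 in both libraries, above DNAJA1. Neither pair traded places then, with HSPA4 at place 6, HSPB1 at 9 and DNAJB1 at 10 in both libraries.

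**Figure D2:**
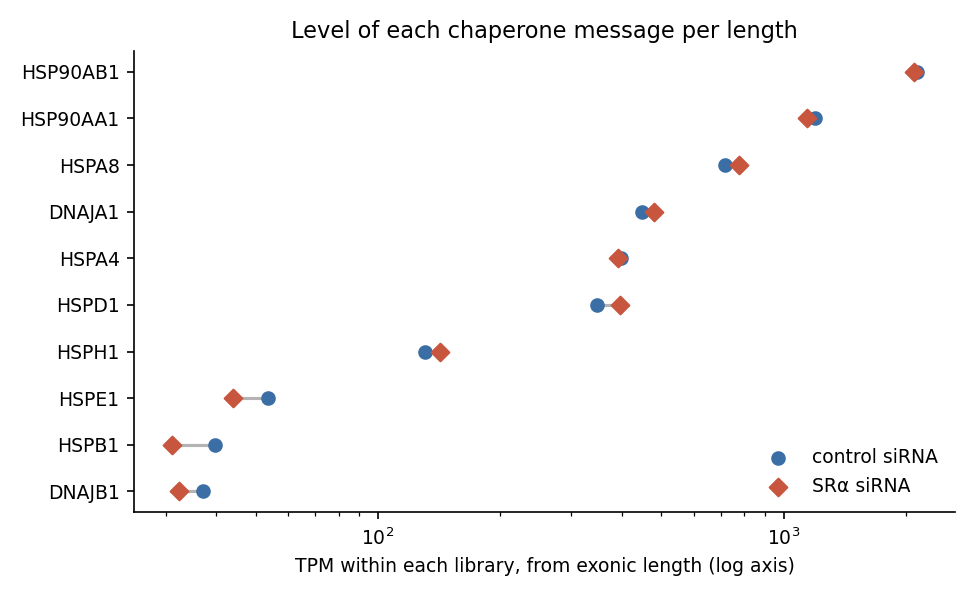
TPM of each chaperone message (x axis, log scale) within the control library (circles) and the SRα library (diamonds). The order runs from HSP90AB1 at 2138 TPM to DNAJB1 at 37.2 TPM in the control library, and distances between the libraries are not to be read, since the TPM ratio between libraries is 0.932 times the CPM ratio.

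TPM was not used between libraries. The ratio of TPM between libraries was 0.932 times that of CPM for each of the 10, a log2 shift of -0.10, and on that scale 6 chaperones instead of 3 were lower in the SRα library. HSP90AA1, HSP90AB1 and HSPA4, whose log2 ratios lay within 0.08 of 0, are the 3 that changed side. With the length of the longest coding transcript 3 were lower in TPM, as in CPM. HSPA8, HSPH1, DNAJA1 and HSPD1 were higher, and DNAJB1, HSPB1 and HSPE1 lower, in CPM and on both TPM scales.

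GC content moved with the ratios of all genes, and the chaperones differ in it. In 10 bins of GC over genes of at least 50 CPM, the median log2 ratio was 0.08 in the bin lowest in GC and -0.05 in the highest. GC was 40.0% of the longest transcript for HSPH1, 41.7% for DNAJA1, 44.2% for HSPD1, 47.0% for HSPA8, 50.2% for HSPE1, 53.0% for DNAJB1 and 64.3% for HSPB1. The 3 members with the highest GC are those with a log2 ratio below 0. Less the median of genes of at least 50 CPM in the same GC bin, HSPD1 had 0.23, HSPA8 0.16, HSPH1 0.15, DNAJA1 0.14, HSP90AB1 0.03, HSPA4 0.01 and HSP90AA1 -0.02. DNAJB1 then had -0.09, HSPB1 -0.20 and HSPE1 -0.21. The interval shifted in the same way still lay above equal levels for 4 of the 5, HSP90AB1 being the exception, and 0 members remained 1.2-fold apart.

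**Figure D3:**
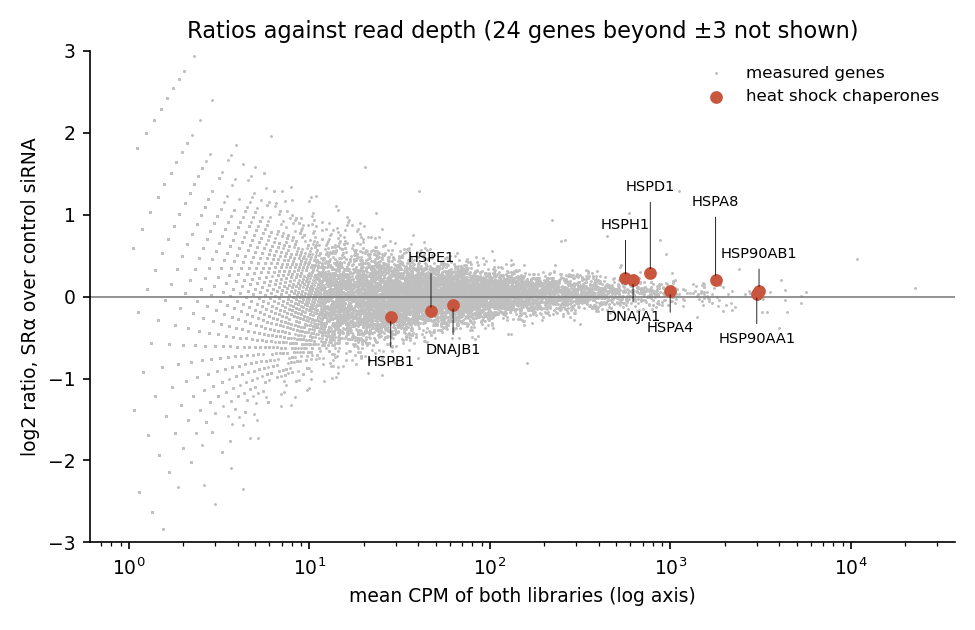
Log2 ratio (y axis) against mean CPM of both libraries (x axis, log scale) for genes of at least 1 CPM in grey and the 10 chaperones in red. The grey cloud narrows with reads, and HSPA8, HSPH1, DNAJA1 and HSPD1 sit in its upper part at 563 to 1779 CPM.

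The chaperones were next set against relatives in other compartments, by reads of 1 gene per read of another within the same library. Such a ratio does not depend on scaling. The 18 pairs were chosen with earlier results of these data known, several share a gene, and the interval of 13 left out 1. No share over other pairs of genes of like depth was computed. These counts of pairs are therefore not read as a trait of chaperones. Each of the 6 chosen pairs of a cytosolic chaperone over a relative in the endoplasmic reticulum (ER) was larger in the SRα library, with an interval above 1. HYOU1 and HSP90B1 each serve in more than 1 of these pairs, and other pairings were not computed. Of the 8 ER chaperones listed below, 5 had a log2 ratio above 0 and 3 below, so the pairs do not stand for all of them. HSPA8 reads per read of HSPA5 (BiP), the HSP70 of the ER, were 0.454 and 0.599, a ratio of 1.32 (1.26 to 1.38). HSPH1 over HYOU1, the HSP110 relative of the ER, gave 0.340 and 0.474, a ratio of 1.39 (1.28 to 1.51). HSPA4 over HYOU1 gave 0.637 and 0.798, a ratio of 1.25 (1.17 to 1.34).

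The ratio between libraries was closer to 1 in the HSP90 pairs and, by its point value, in DNAJA1 over DNAJB11, the only J-domain pair of this kind. HSP90AB1 over HSP90B1, the HSP90 of the ER, gave 0.688 and 0.742, a ratio of 1.08 (1.04 to 1.12), and HSP90AA1 over HSP90B1 gave 1.05 (1.01 to 1.09). DNAJA1 over DNAJB11, a J-domain protein of the ER, gave 1.14 (1.03 to 1.27). That interval overlaps those of HSPA8 over HSPA5 and HSPA4 over HYOU1. On the CPM scale, HSPA5 had 3633 and 3185 CPM, a log2 ratio of -0.19 (-0.23 to -0.15), and HYOU1 had -0.25 (-0.31 to -0.19). HSP90B1 had -0.04, with an interval from -0.07 to just below 0.

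Mitochondrial relatives were compared in the same way. HSPA8 over HSPA9, the mitochondrial HSP70, gave 1.65 and 1.83 reads per read, a ratio of 1.11 (1.04 to 1.19), and HSPD1 over HSPA9 gave 1.18 (1.09 to 1.27). HSP90AB1 over TRAP1, the mitochondrial HSP90, gave 1.11 (1.02 to 1.21). HSP90AB1 over STIP1, the adaptor that links HSP70 to HSP90, gave 1.01 (0.94 to 1.08), which the counts do not separate from 1. HSPA8 over HSPH1 was 0.988 (0.913 to 1.07), while HSPA8 over HSPA4 was 1.10 (1.03 to 1.17).

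**Figure D4:**
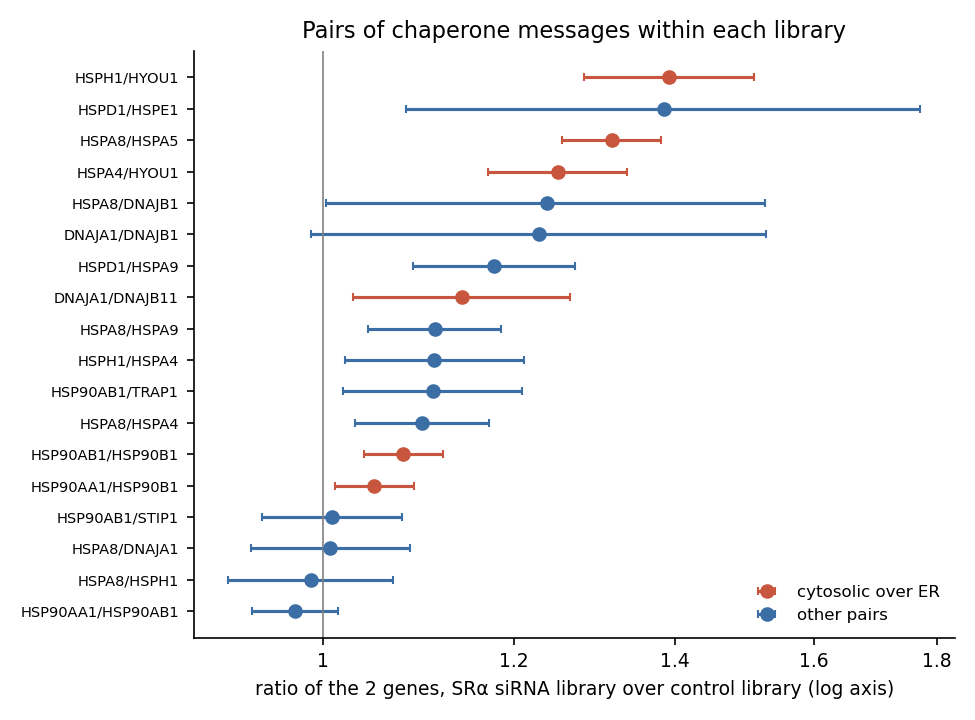
Ratio of the reads of 2 genes in the SRα library over the same ratio in the control library (x axis, log scale), with exact 95% counting intervals, for 18 pairs. Red points, a cytosolic chaperone over its ER relative, lie at 1.05 to 1.39, and the HSPD1 and HSPE1 pair at 1.39 has the widest interval.

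The rest of the chaperone network was described from 10 lists, some sharing genes. Of their 93 measured genes outside the 10 chaperones, 54 had a log2 ratio above 0 and 39 below, with a median of 0.03. None lay 2-fold apart, 8 were 1.2-fold higher and 7 were 1.2-fold lower. That is 8.60% and 7.53%, under the 17.5% and 18.4% of all genes of at least 1 CPM and over the 5.24% and 2.92% of those of at least 50 CPM.

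The cytosolic chaperonin TRiC, which folds actin and tubulin, and its partner prefoldin had 12 of 13 measured genes above 0, beside 59.9% of all genes of at least 50 CPM, with a median of 0.08. That median was 0.039 with library totals, 0.043 with totals lacking mitochondrially encoded and the 10 most-read genes, and 0.049 with the GC bin median removed. With the GC bin median removed, CCT8 (-0.016), TCP1 (-0.021), CCT5 (-0.029) and PFDN1 (-0.262) lay below 0 and the rest above. These genes were named after their values were seen. For 5 of the 13 the interval lay above equal levels, beside 11.7% of those genes, and 0 were 1.2-fold apart in either direction. CCT3, the most read, had 6549 and 10673 reads, at a log2 ratio of 0.07 (0.02 to 0.11). CCT7 stood at 0.05 (-0.01 to 0.11). The HSP90 co-chaperones were split, 8 above and 8 below 0, with a median of 0.00. STIP1 had 697 and 728 CPM and 0.06 (-0.03 to 0.15), and AHSA1, which speeds the HSP90 ATPase, had -0.01 (-0.12 to 0.10).

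Other J-domain proteins had 10 of 17 measured genes above 0, beside 51.4% of all genes of at least 1 CPM. Their median was 0.14, or 0.093 with the GC bin median removed. DNAJC9, a histone chaperone with a J domain, had the highest log2 ratio at 0.73 (0.16 to 1.33) from 36 and 93 reads, and reads of its antisense partner cannot be told apart where strand was not used. DNAJA2, the close relative of DNAJA1, had 596 and 1110 reads and 0.26 (0.12 to 0.41). DNAJC7 had 775 and 1327 reads and 0.14 (0.01 to 0.27). Exchange factors and cofactors of HSP70 had 6 of 10 above 0, beside the same 51.4%. Among them GRPEL1 stood at -0.01 (-0.16 to 0.14), HSPBP1 at 0.07 (-0.18 to 0.32) and BAG3, an HSF1 target, at 0.19 (-0.16 to 0.55).

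Of the other HSP70 and HSP110 genes 6 of 11 were measured and 4 lay above 0, beside 51.4% of all genes of at least 1 CPM. HSPA9 had 2479 and 4001 reads, at a log2 ratio of 0.05 (-0.02 to 0.13), and HSPA13 stood at -0.09 (-0.24 to 0.06). Other mitochondrial chaperones and proteases had 5 of 15 above 0, beside the same 51.4%, and a median of -0.03. CLPX, the unfoldase of the matrix protease CLPP, had 250 and 480 reads and 0.30 (0.08 to 0.53). TRAP1 had 414 and 393 CPM and -0.08 (-0.19 to 0.04).

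HSF1 had 95 and 166 reads, or 38.4 and 43.1 CPM, a log2 ratio of 0.17 (-0.20 to 0.55), so no difference was detectable. HSF2, a second heat shock factor, had 187 and 364 reads and 0.32 (0.07 to 0.59), and HSBP1, which binds HSF1 trimers, had 485 and 723 reads and -0.06 (-0.23 to 0.11). Other listed HSF1 targets had 13 of 20 measured genes above 0 and a median of 0.05, beside 51.4% above 0 among genes of at least 1 CPM. The median was 0.015 with library totals, 0.019 with totals lacking mitochondrially encoded and the 10 most-read genes, and 0.094 among those of at least 5 CPM. None of the 20 was 1.2-fold higher and 3 were 1.2-fold lower, against 17.5% and 18.4% of genes of at least 1 CPM. The 3 were HSPB8 with 4 and 3 reads, ZFAND2A with 11 and 12 and DEDD2 with 46 and 52. They were named after their values were seen, and each interval held equal levels. The TRiC subunit CCT2, also in that list, had 736 and 834 CPM and 0.18 (0.10 to 0.26). HSPA1A, HSPA1B, DNAJA4 and CRYAB of the HSF1 target list were listed at 0 in both libraries.

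Of 7 other genes with a small heat shock protein symbol 2 were measured. These are HSPB8, given above, and HSPB11. HSPB11, a ciliary transport protein that carries the family's name, had 269 and 495 reads and 0.24 (0.03 to 0.46). The 8 ER chaperones of the same families had a median of 0.02, with 5 above 0 and the interval of 3, HSPA5, HYOU1 and HSP90B1, below equal levels. Of all genes of at least 1 CPM, 51.4% lay above 0 and 3.39% had an interval below equal levels. Among genes of at least 50 CPM these shares were 59.9% and 4.89%. The 3 genes averaged 1402 to 4330 CPM, where intervals are narrow, so neither share is matched to their depth. The median of the 8 ER chaperones was below 0 with library totals (-0.020) and with totals lacking mitochondrially encoded and the 10 most-read genes (-0.016). It was also below 0 with the GC bin median removed (-0.061).

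**Figure D5:**
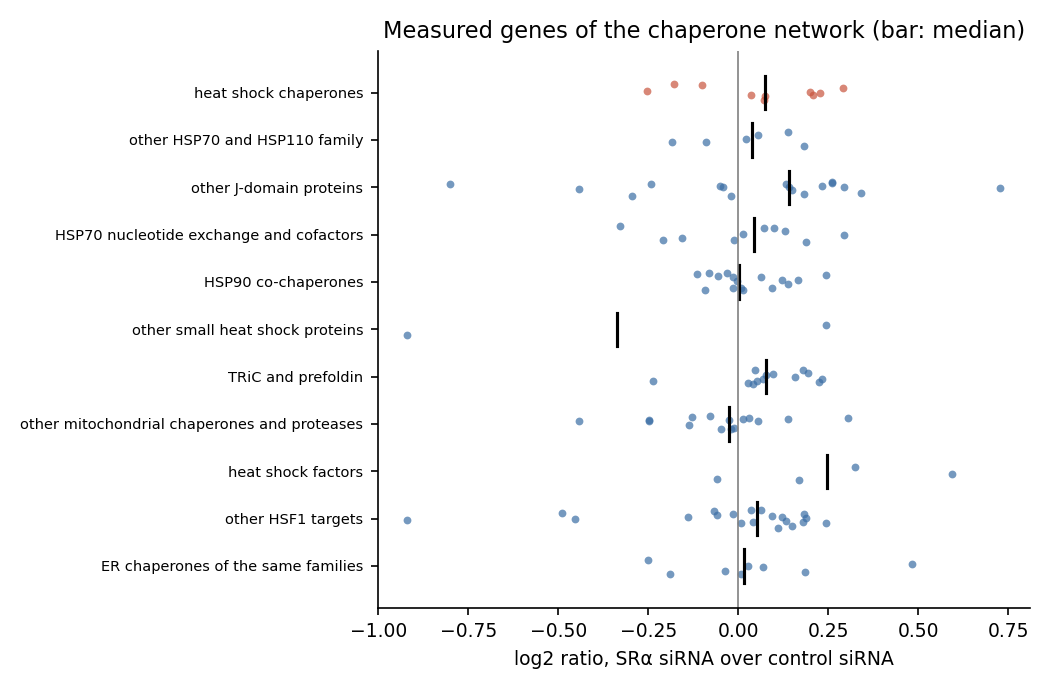
Log2 ratio (x axis) of each measured gene in the 10 chaperones (red) and 10 related lists (blue), with a black bar at the median of each list and heights within a row spread for legibility. TRiC and prefoldin cluster just right of 0 with a median of 0.08, and no point of any list reaches 1 or -1.

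By promoter sequence, the 5 genes with an element printed above had log2 ratios of 0.03 to 0.29, and the 5 without one had -0.25 to 0.23. HSPH1, without a match, lay at 0.23 and HSP90AA1, with one, at 0.03, so the ranges overlapped.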

How the data were processed

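Each library's deposited file gives counts of reads per Ensembl gene ID, not normalized. The authors' steps included cutadapt and STAR 2.5.2b on hg19, per the submitters' processing notes, and the TruSeq Stranded mRNA kit, per the labels' protocols. The counting program, its use of strand and its annotation are each not given in the sources used here, and reads of antisense or overlapping genes cannot be separated. The 5 summary lines per file were left out of the totals. Reads in no gene were 7.23% and 7.49% of unique alignments.

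IDs were named from a gene name table (51996) or GENCODE 29 (342), and 5482 stayed unnamed. GENCODE 29 also gave length, GC and gene order by ID. Libraries were scaled with edgeR 4.0.16 TMM factors (R 4.3.3) to effective sizes of 2476276 and 3847820. The log2 ratio is SRα over control, after adding 0.5 reads per average library as a prior count. Intervals are exact (Clopper-Pearson) 95% intervals of the 2 counts given their sum, and for pairs exact conditional intervals of the odds ratio (scipy 1.17.1). Reads without molecular identifiers are not independent molecules. A gene was called measured at an average of 1 CPM. The limit that a count of 0 allows, 3 reads, is 1.21 CPM in the control and 0.780 CPM in the SRα library.

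Named genes were the 10 chaperones, a fixed set of 10 others, copies with 10 or more reads, and of each list the 2 most-read genes and those 1.2-fold apart whose interval left out equal levels; 1 gene that this rule names is not reported here. HYOU1, DNAJB11, HSPA6 and genes listed at 0 were named with values known. The members and lists were likewise chosen with earlier results of these data known. The procedure was tested on simulated counts. Alternatives were DESeq2 1.42.0 size factors, other totals, filters, prior, thinning, GC and added copies.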

Additional observations from a re-analysis of the deposited data

How the results depend on the processing

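Of 10 alternatives to the scaling, filter, prior, depth, GC handling and treatment of copies, none placed a chaperone 2-fold apart. HSPA8, HSPH1, DNAJA1, HSPD1, HSP90AB1 and HSPA4 kept a log2 ratio above 0 and DNAJB1, HSPB1 and HSPE1 one below 0 in each. HSP90AA1 ranged from -0.02 to 0.04 and was below 0 under 2 of them, library totals and the GC correction. The count with an interval above equal levels ranged from 4 to 6. With library totals the median over the 10 was 0.037 and over the 93 related genes -0.0066. With totals lacking mitochondrially encoded and the 10 most-read genes these medians were 0.040 and -0.0031, and with the GC bin median removed 0.019 and -0.0073. The count of chaperones 1.2-fold apart, 1 in the report, was 2 after thinning, with a median of 0.057, and 0 with GC removed. The cause was not tested. No paired analysis was possible because each group holds 1 library. Depth limits HSPB1, HSPE1 and DNAJB1, whose ratio intervals run from 0.615 to 1.15, 0.696 to 1.12 and 0.760 to 1.15.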
